A study of Mus musculus with 35 samples.

Results

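Hdac1, Hdac2, Hdac3, Hdac4, Hdac5, Hdac6, Hdac7, Hdac8, Hdac9 and Hdac11 encode zinc-dependent histone deacetylases. These 10 genes were taken by name from the 14870 genes of an RNA-seq matrix from mouse medial prefrontal cortex (mPFC), and all 10 had a row. The rule uses gene names and no measured value, though the genes were chosen with earlier results of these data known. The tissue came as punches of bulk mPFC, a cortical area with a part in social behaviour, from wild-type mice (WT) and mice deficient in Shank3 (KO). Shank3 encodes a scaffold protein of excitatory synapses. Mice of each genotype received water as control, antibiotics (abx), acetate, or the combination (abx_and_acetate). The 35 libraries fell into 4 WT groups, WT_control (6 libraries), WT_acetate (5), WT_abx (4) and WT_abx_and_acetate (4), and 4 KO groups, KO_acetate (5), KO_control (4), KO_abx_and_acetate (4) and KO_abx (3), with 15 female and 20 male libraries. Strain, age, dose, duration and the Shank3 allele are not given in the labels used here.

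Histone deacetylases remove acetyl groups from lysines of histones and other proteins, and deacetylated chromatin at promoters generally goes with lower transcription. Class I enzymes (Hdac1, Hdac2, Hdac3, Hdac8) are mainly nuclear, and Hdac1, Hdac2 and Hdac3 work inside large corepressor complexes. Class IIa enzymes (Hdac4, Hdac5, Hdac7, Hdac9) have weak catalytic activity of their own, bind MEF2 transcription factors and leave the nucleus when calcium-dependent kinases phosphorylate them. Hdac6, of class IIb, is cytoplasmic and acts on tubulin, and Hdac11 is the only class IV enzyme. Acetate, which gut bacteria release from fibre, is a source of acetyl-CoA, the donor for histone acetylation, so the design allows these genes to be compared across genotype, antibiotics and acetate.

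Values are log2 CPM, reads scaled to library size, and the depth recovered from them was 12.8 to 28.0 M (mega) reads per library. Shank3 was lower in every KO library than in every WT library of the same treatment. In control, Shank3 read 4.32 to 5.11 in KO and 8.24 to 8.85 in WT (2-sided exact permutation p = 0.004762, the smallest these group sizes allow). Within the WT labels, WT_abx 4, WT_acetate 2 and WT_acetate 5 had lower Shank3 than the other WT libraries, and in WT_acetate 2, WT_acetate 4, WT_acetate 5 and WT_abx 3 the Y-linked genes went against the labelled sex. The excitatory neuron marker Slc17a7 read 10.48 to 11.06 over the libraries and the cortical projection neuron gene Tbr1 6.91 to 7.58. KO_acetate 1 stood apart, with a summed level of 9 striatal neuron markers of 1076.4 CPM against 149.9 to 216.6 CPM in the other 34 libraries. These 6 libraries carry their labels below. In bulk tissue, fewer cells of a type and less RNA per cell cannot be told apart.

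Hdac11 had the highest transcript level of the 10 genes and Hdac8 the lowest. Levels of different genes were compared as RPKM, which divides CPM by exon length in kilobases, over the 35 libraries. Hdac11 averaged 56.6 ± 3.87 RPKM (SD, n = 35) and made up 40.0% of the sum over the 10 genes. Hdac5 followed at 23.9 ± 2.55 RPKM and 16.9% of the sum. Hdac3 (15.7 ± 1.16 RPKM) and Hdac2 (15.3 ± 1.02 RPKM) differed by less than the sum of their SDs, as did Hdac1 (8.09 ± 0.551 RPKM) and Hdac6 (8.08 ± 0.757 RPKM). Both ties depend on the length used: per kilobase of the longest coding transcript, Hdac3 (31.3 ± 2.32 RPKM) lay above Hdac2 (21.1 ± 1.41 RPKM) and Hdac1 (13.7 ± 0.932 RPKM) above Hdac6 (11.4 ± 1.06 RPKM). Hdac9 (4.29 ± 0.572 RPKM), Hdac7 (3.78 ± 0.947 RPKM) and Hdac4 (3.62 ± 0.336 RPKM) formed a run of neighbours that likewise did not separate. Hdac8 lay below them at 1.88 ± 0.347 RPKM. Hdac10, a deacetylase gene that is not among the 10, also had a row and averaged 3.14 ± 0.810 RPKM. Per kilobase of the longest coding transcript, Hdac10 read 4.40 ± 1.13 RPKM and Hdac8 4.70 ± 0.867 RPKM. Hdac11 was above Hdac5 in 35 of 35 libraries. The class IIa genes therefore spanned both the second rank, held by Hdac5, and 3 of the lowest 4 ranks.

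**Figure D1:**
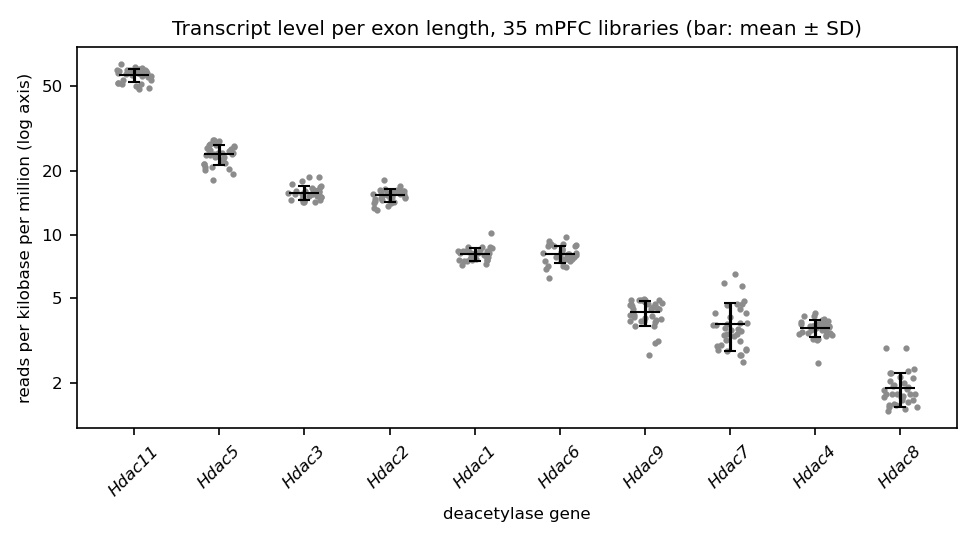
Transcript level of the 10 deacetylase genes in RPKM (log axis), 1 grey point per library, with black bars for the mean ± SD over 35 libraries. Hdac11 averaged 56.6 and Hdac8 1.88.

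The genes also differed in how much they varied between libraries of the same group. The residual SD, the spread left after group means and sex were fitted, was 0.09 log2 for Hdac11, the 8.76th percentile of all genes. It was 0.10 for Hdac1, 0.10 for Hdac3, 0.11 for Hdac2 and 0.11 for Hdac4, against a median of 0.17 over all genes. Hdac7 was the most variable, at 0.36 log2 and the 81.4th percentile, followed by Hdac8 at 0.26 and Hdac9 at 0.22. The reads behind each gene ran from 139 to 305 per library for Hdac8 and from 2517 to 6482 for Hdac11, with medians of 183 and 4713. Groups and sex held 53% of the variance of Hdac4, 39% of Hdac11 and 34.3% of Hdac5, with a median of 24.3% over all genes. The share was 26.7% for Hdac6, 21.7% for Hdac3, 15.2% for Hdac9 and 11.5% for Hdac7. It was 11.3% for Hdac1, 9.53% for Hdac8 and 9.06% for Hdac2.

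No deacetylase gene passed an adjusted p of 0.05 in any of 19 comparisons of genotype, treatment, their interactions and sex. The count was 0 of 10 with limma on the deposited values and also 0 of 10 with voom weights. Without adjustment, 16 of 190 member tests (8.42%) had p under 0.05, against 6.66% of the tests over all genes. The comparison of KO with WT called 0.0202% of all genes in control, 0.0134% in abx, 0.00672% in acetate, 0.0134% in abx_and_acetate and 0.0202% over treatments. In WT, abx_and_acetate against control called 0.726% of all genes, acetate against control called 0.00672%, and abx against control and abx_and_acetate against abx called 0%. In KO, abx against control called 0.0134%, and the other 3 treatment comparisons 0%. The 3 interactions and the antibiotic main effect called 0%, the acetate main effect 0.0672% and the comparison of females with males 0.0672%. The largest absolute log2 fold of any deacetylase was 0.38, and the 95% intervals of the 12 comparisons between 2 groups stayed within -0.79 and 0.75.

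**Figure D2:**
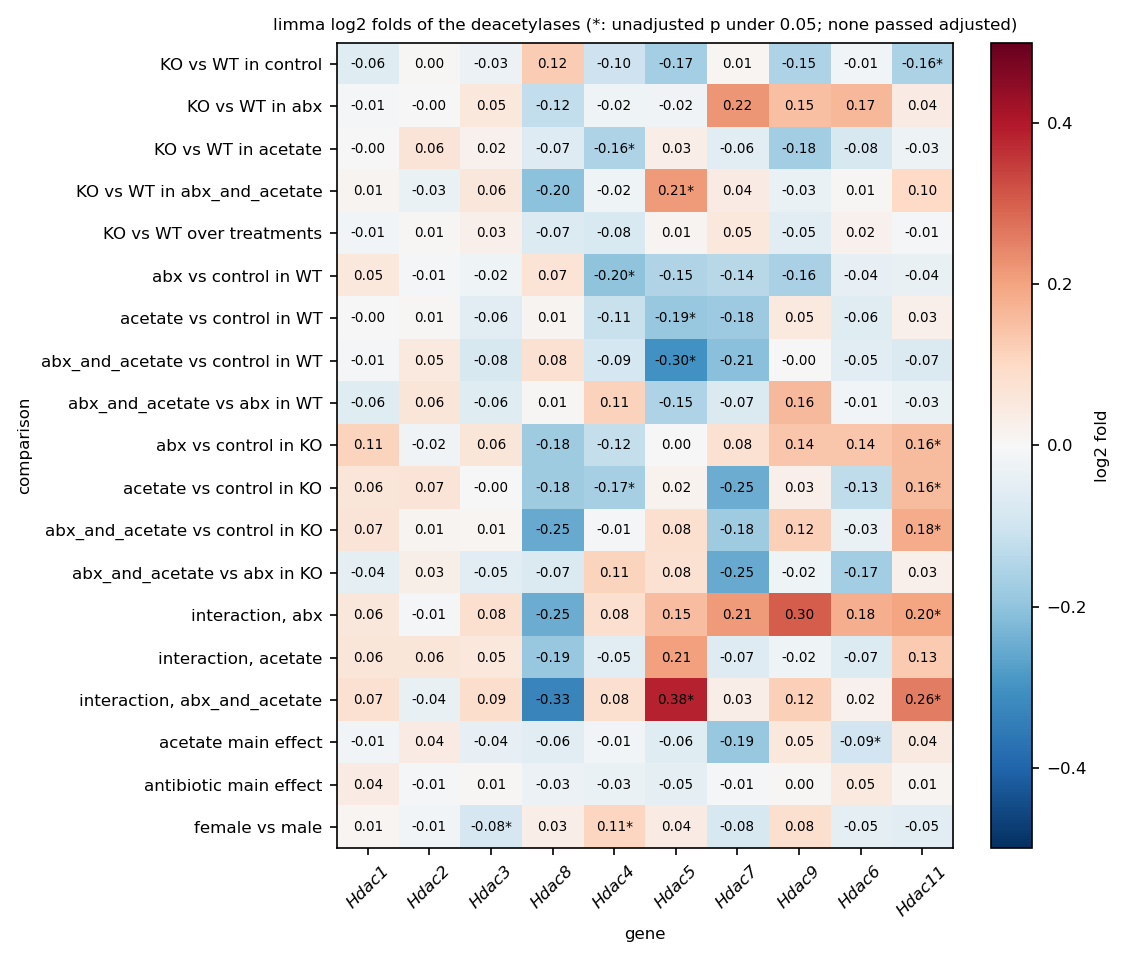
limma log2 folds of the 10 deacetylase genes (columns) in 19 comparisons (rows), coloured from blue (lower in the group named first) to red (higher), with an asterisk at an unadjusted p under 0.05. The asterisks number 16 of 190 and none passed the adjusted threshold.

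In class I, Hdac1 and Hdac2, the paired catalytic subunits of the SIN3, NuRD and CoREST complexes, each had group means that spanned at most 0.12 log2. Hdac1 (chromosome 4, 129516104 to 129542713, minus strand, GRCm38) had log2 folds of -0.06 to 0.11 over the 19 comparisons, and its group means lay between 4.73 ± 0.07 in KO_control and 4.85 ± 0.19 in WT_abx (SD). The SD in WT_abx came with 1 library, as WT_abx 4 read 5.13 and the others 4.82, 4.71 and 4.74. WT_abx 4 also had the highest choroid plexus marker score, 4.54 over the 3 markers measured, and its part in that value was not tested. Hdac2 (chromosome 10, 36974544 to 37001889, plus strand) had folds of -0.04 to 0.07 and group means of 6.07 to 6.15. Its highest library was KO_acetate 1, at 6.34. For these 2 genes the widest 95% intervals over all comparisons reached -0.25 and 0.29, so a change of a log2 unit lay outside them.

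Hdac3, the catalytic subunit of the NCoR complex, and Hdac8, which deacetylates the cohesin subunit SMC3, also kept their groups close. Hdac3 (chromosome 18, 37935844 to 37955016, minus strand) had folds of -0.08 to 0.09 and group means of 5.95 to 6.05. Its highest values were 6.25 in KO_control 1 and 6.25 in WT_control 2. Hdac3 was 5.95 in females and 6.02 in males on average (log2 fold -0.08 ± 0.04, SE; limma adjusted p = 0.9992). Hdac8 (X chromosome, 102284639 to 102505359, minus strand) rested on the fewest reads and had the widest intervals of class I, from -0.84 to 0.46. Its female-to-male fold was 0.03 ± 0.09 (adjusted p = 0.9992) and ran from -0.05, without WT_abx_and_acetate 4, to 0.06 over the recalculations. KO_control had the highest Hdac8 mean, 3.28 ± 0.18 (3.37, 3.49, 3.10 and 3.17), and KO_abx_and_acetate the lowest, 3.04 ± 0.10 (3.10, 3.07, 3.10 and 2.89). The ranges of these 2 groups overlapped at 3.10, and the fold between them was -0.25 ± 0.18 (adjusted p = 0.7349).

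Hdac5, the class IIa gene with the highest level in this tissue, had the smallest p of the 190 member tests. It lies on chromosome 11 from 102194432 to 102230166 (minus strand). The WT_control libraries read 7.94, 7.93, 7.73, 7.84, 7.94 and 7.74, and the WT_abx_and_acetate libraries 7.46, 7.61, 7.51 and 7.58. All 4 of the latter lay below all 6 controls, a separation seen downward in 2.24% of all genes. The log2 fold was -0.30 ± 0.09 (0.81-fold, 95% interval -0.49 to -0.11), and its limma adjusted p of 0.1023 missed the threshold. Over the 23 recalculations the fold ran from -0.33 to -0.28 and the adjusted p from 0.06084, with only these 2 groups fitted, to 0.2843. The sum of 8 microglia markers was 335 to 378 CPM in WT_control and 267 to 371 CPM in WT_abx_and_acetate. The sum of 5 oligodendrocyte precursor markers was 174 to 224 CPM and 161 to 193 CPM in these groups. The part of either list in the fold was not tested.

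Under the single agents Hdac5 in WT read 7.40, 7.87, 7.67, 7.52 and 7.80 with acetate and 7.81, 7.73, 7.49 and 7.79 with abx. Both groups overlapped the controls. The acetate fold was -0.19 ± 0.09 (adjusted p = 0.5043), and it became -0.31 ± 0.10 (adjusted p = 0.2886) without the 3 WT libraries of low Shank3 and -0.29 ± 0.11 (adjusted p = 0.4099) without the 5 WT libraries of low Shank3 or mismatched sex. The abx fold was -0.15, and it was -0.07 ± 0.10 without WT_abx 3 and -0.06 ± 0.11 without the 5 WT libraries. Adding acetate to abx gave WT Hdac5 a fold of -0.15 ± 0.10 (adjusted p = 0.8773), and -0.24 ± 0.11 (adjusted p = 0.9998) without those 5.

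In KO the Hdac5 groups overlapped. KO_control read 7.32, 7.64, 7.90 and 7.86, the widest range of any group, and KO_abx_and_acetate 7.87, 7.85, 7.68 and 7.70. The fold between these KO groups was 0.08 and turned to -0.03 ± 0.09 (adjusted p = 0.984) without KO_control 1, the library at 7.32, whose microglia score was -0.35. Leaving out other libraries of these groups gave 0.03 to 0.15. The interaction, which tests the KO fold against the WT fold of -0.30, was 0.38 ± 0.14 (adjusted p = 0.9987) and did not pass. Within abx_and_acetate, every KO library was above every WT library, as in 1.58% of all genes in that direction, with a fold of 0.21 ± 0.10 (adjusted p = 0.9992). The Hdac5 exons hold the 111 bases of Mir8101 on the same strand.

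Hdac4, a class IIa enzyme that shuttles to the nucleus in neurons, was highest in WT_control. Its gene is on chromosome 1 from 91928779 to 92195699 (minus strand). WT_control read 6.08, 5.92, 5.87, 6.02, 5.96 and 5.97, and WT_abx 5.85, 5.67, 5.75 and 5.82. The ranges did not overlap, a downward separation seen in 1.3% of all genes. The fold was -0.20 ± 0.07 (adjusted p = 0.3877). With acetate added to abx, WT Hdac4 read 5.80, 5.72, 5.87 and 6.03 and overlapped both groups. On the opposite strand, 3536 of the exon bases of Hdac4 are shared with the lincRNA Gm26720, and if counting ignored strand, reads of the 2 genes cannot be told apart.

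The Hdac4 differences that involve KO_acetate rested on 1 library. KO_acetate read 5.29, 5.78, 5.76, 5.90 and 5.73, and the value of 5.29 is that of KO_acetate 1, the library with high striatal markers. KO against WT in acetate gave -0.16 ± 0.07 (adjusted p = 0.8274) with it and -0.06 ± 0.06 (adjusted p = 0.9998) without it. Acetate against control in KO gave -0.17 ± 0.08 (adjusted p = 0.3533) with it and -0.07 ± 0.06 (adjusted p = 0.6516) without it. Hdac4 averaged 5.90 in females and 5.78 in males, with a fitted fold of 0.11 ± 0.04 (adjusted p = 0.9992) that stayed between 0.08 and 0.13 over 46 recalculations.

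Hdac7 and Hdac9, the other class IIa genes, varied more between libraries than between groups. Hdac7 (chromosome 15, 97792664 to 97844502, minus strand) is best known from vascular and lymphoid cells. It ran from 4.08 in WT_acetate 2 to 5.45 in WT_control 2, and within WT_control alone from 4.19 to 5.45. Its group means ran from 4.51 ± 0.14 in KO_acetate to 4.84 ± 0.37 in KO_abx, and its folds from -0.25 to 0.22. The 95% intervals reached -0.79 and 0.91. On the opposite strand, 29 of the Hdac7 exon bases are shared with Slc48a1. Hdac9 (chromosome 12, 34047580 to 34917095, minus strand) had group means of 5.86 to 6.04 and folds of -0.18 to 0.30. Its 3 lowest libraries were KO_acetate 1 at 5.31, WT_abx 4 at 5.49 and KO_control 1 at 5.52.

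Hdac6, the cytoplasmic tubulin deacetylase, separated KO from WT under antibiotics in its ranges but not by the test. Its gene is on the X chromosome from 7930120 to 7947889 (minus strand). KO_abx read 5.71, 5.67 and 5.77, and WT_abx 5.48, 5.58, 5.56 and 5.54, an upward separation found in 2.64% of all genes. The fold was 0.17 ± 0.10 (adjusted p = 0.9946). KO_abx_and_acetate, at 5.57, 5.45, 5.55 and 5.53, lay below all 3 KO_abx libraries, as in 2.3% of all genes downward, with a fold of -0.17 ± 0.10 (adjusted p = 0.9997). Averaged over genotype and antibiotics, Hdac6 was 5.51 with acetate and 5.60 without it, a fold of -0.09 ± 0.05 (adjusted p = 0.2733). The lowest library was KO_acetate 1, at 5.18. The female-to-male fold of this X-linked gene was -0.05 ± 0.05 (adjusted p = 0.9992), and -0.08 ± 0.05 (adjusted p = 0.9633) without the 4 libraries of mismatched sex. Over 46 recalculations it ran from -0.09 to -0.03.

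Hdac11, which removes long-chain fatty acyl groups as well as acetyl groups, had its lowest mean in KO_control. The gene is on chromosome 6 from 91156665 to 91174692 (plus strand). Of its 3849 exon bases, 594 are shared with Gm44002 and 96 with Gm14573 on the opposite strand. If counting ignored strand, reads from the shared bases cannot be told apart. KO_control read 7.59, 7.76, 7.60 and 7.56, and WT_control 7.87, 7.79, 7.83, 7.65, 7.84 and 7.73. The groups overlapped through the KO library at 7.76, and the fold was -0.16 ± 0.06 (adjusted p = 0.9841). All 3 treatments of KO had means above KO_control. KO_acetate read 7.70, 7.80, 7.82, 7.85 and 7.77 (fold 0.16 ± 0.06, adjusted p = 0.3011), KO_abx 7.80, 7.83 and 7.75 (0.16 ± 0.07, adjusted p = 0.9994) and KO_abx_and_acetate 7.84, 7.63, 7.84 and 7.89 (0.18 ± 0.07, adjusted p = 0.5303). These comparisons share the 4 KO_control libraries. The corresponding WT folds were 0.03 with acetate, -0.04 with abx and -0.07 with abx_and_acetate, and the acetate and abx folds changed sign in some recalculations. The abx fold became 0.02 without WT_abx 4 and 0.01 without WT_abx 1, and the acetate fold became -0.01 without the 4 libraries of mismatched sex. The abx_and_acetate interaction was 0.26 ± 0.09 (adjusted p = 0.9987) and did not pass. The summed level of 7 astrocyte markers was 3405 to 4120 CPM in KO_control and 2946 to 3305 CPM in KO_acetate, ranges that did not overlap. The mean log2 deviation of the same markers, which weights each gene alike, did overlap. It was -0.13 to 0.23 in KO_control and -0.14 to 0.04 in KO_acetate. The summed level in KO_abx (2725 to 3637 CPM) and KO_abx_and_acetate (3115 to 4099 CPM) overlapped KO_control. In WT the sum was 3394 to 3977 CPM in WT_control and 3046 to 3368 CPM in WT_acetate, also without overlap, where the Hdac11 fold was 0.03. The part of these markers in the Hdac11 folds was not tested.

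**Figure D3:**
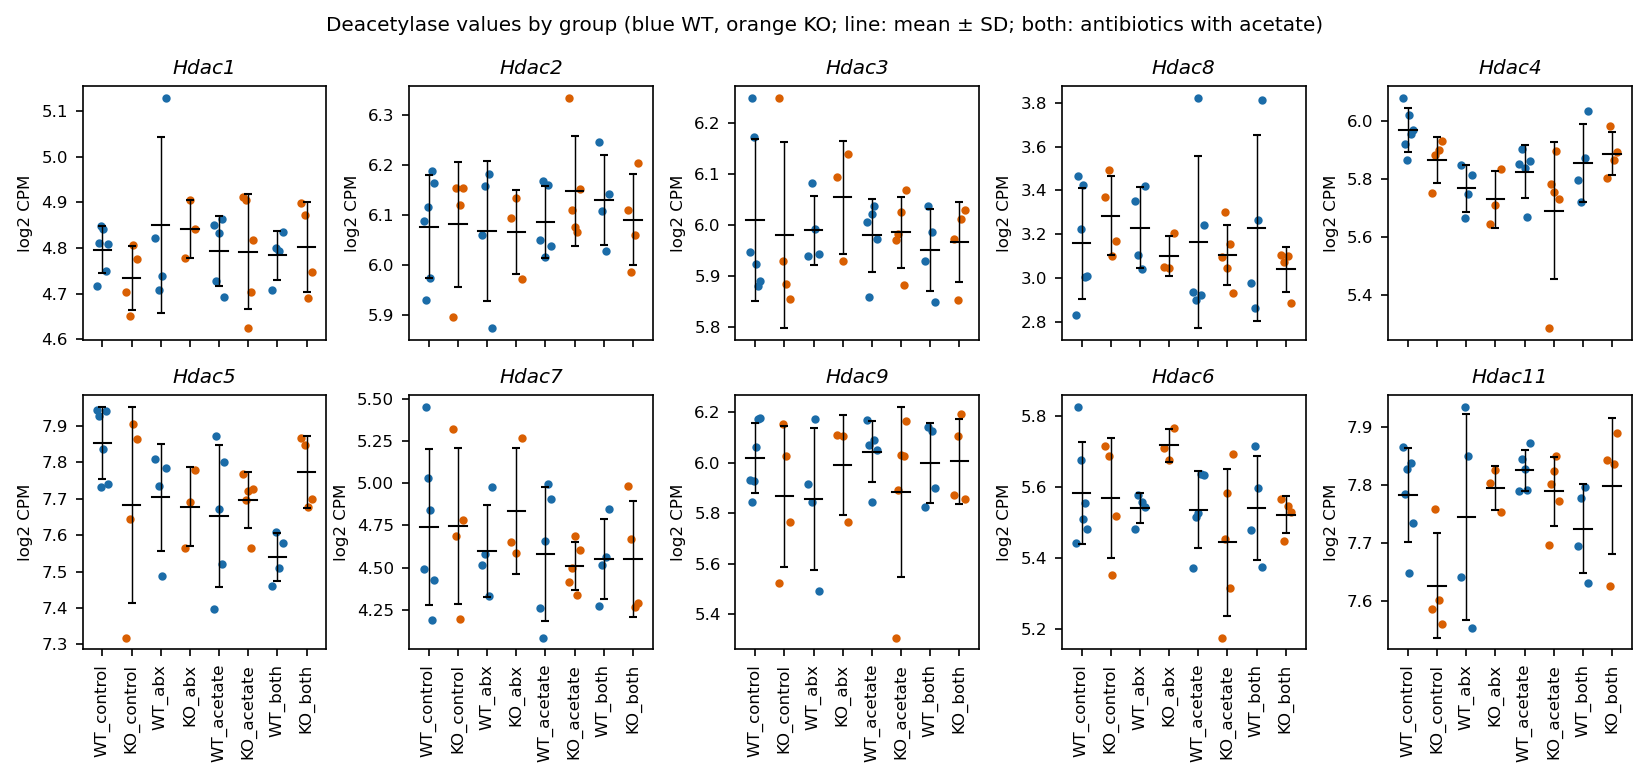
log2 CPM of each deacetylase gene by group, with 1 point per library (WT blue, KO orange) and the mean ± SD in black. The ranges of Hdac5 in WT_abx_and_acetate (7.46 to 7.61) and WT_control (7.73 to 7.94) do not overlap.

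Over the 35 libraries the genes showed both shared and opposed variation. Of the 45 pairs, 5 passed an adjusted permutation p of 0.05 on Pearson's r, 4 positive and 1 negative, and the median r was -0.01. On Spearman's rho 7 pairs passed, 4 positive and 3 negative. Hdac3 and Hdac6 had the highest r, 0.65 (adjusted permutation p = 0.0018), with Spearman's rho 0.68 (adjusted permutation p = 0.0018). The r was 0.56 without the 2 libraries farthest out, 0.74 within WT and 0.59 within KO. Hdac7 was higher where Hdac6 was higher (r = 0.58, adjusted permutation p = 0.00315; rho = 0.56, adjusted permutation p = 0.007312), and likewise for Hdac8 (r = 0.47, adjusted permutation p = 0.03492; rho = 0.56, adjusted permutation p = 0.007312). Without the 2 farthest libraries these r were 0.47 and 0.56. Hdac7 and Hdac2 ran in opposite directions (r = -0.59, adjusted permutation p = 0.00315; rho = -0.50, adjusted permutation p = 0.01942), with r -0.60 without the 2 farthest libraries. Hdac3 and Hdac7 passed on r, 0.59 (adjusted permutation p = 0.00315), but not on rho, 0.37 (adjusted permutation p = 0.1257). The reverse held for Hdac3 and Hdac4 (rho = -0.58, adjusted permutation p = 0.007312; r = -0.33), Hdac2 and Hdac8 (rho = -0.53, adjusted permutation p = 0.01359; r = -0.43) and Hdac4 and Hdac5 (rho = 0.47, adjusted permutation p = 0.02938; r = 0.30).

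**Figure D4:**
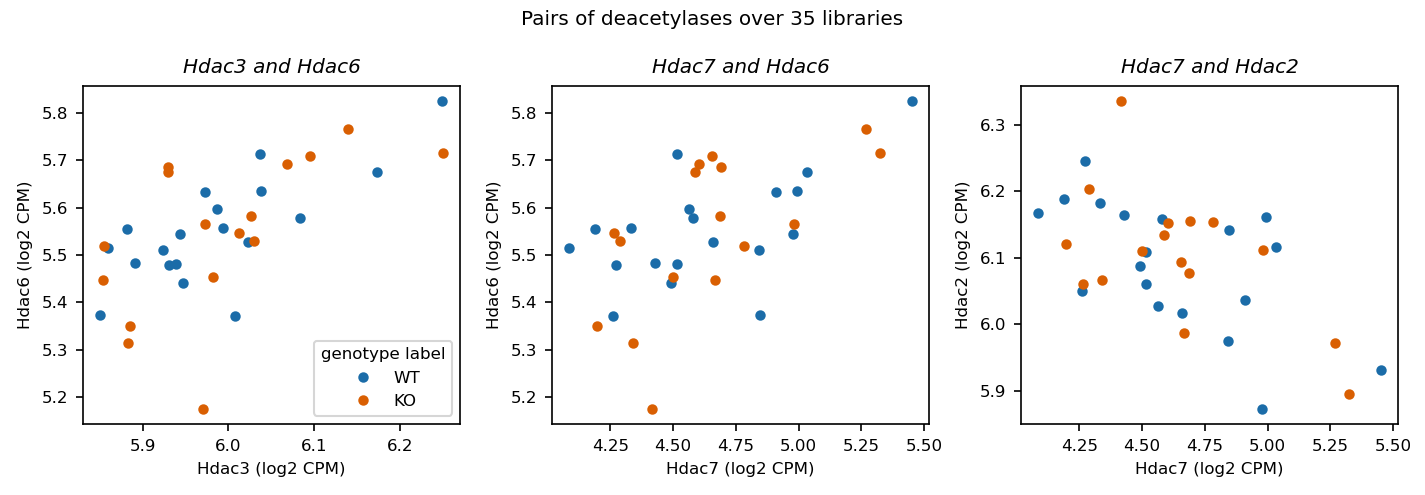
Log2 CPM of 3 pairs of deacetylase genes, 1 point per library (WT blue, KO orange). Hdac6 is high where Hdac3 (r = 0.65) and Hdac7 (r = 0.58) are high, and Hdac2 is low where Hdac7 is high (r = -0.59).

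Hdac6, Hdac7 and Hdac2 are the genes of the strongest positive and negative pairs for which promoter sequence was to hand, so the 200 bases before their RefSeq starts (GRCm38.p6) are shown, 5′ to 3′ on the strand of the gene. RefSeq promoters matched 8 of the 10 genes. Capitals mark GC boxes (GGGCGG, or CCGCCC on the other strand) and CCAAT boxes (CCAAT, or ATTGG on the other strand).
Hdac6 chrX:7947890-7948089, minus strand: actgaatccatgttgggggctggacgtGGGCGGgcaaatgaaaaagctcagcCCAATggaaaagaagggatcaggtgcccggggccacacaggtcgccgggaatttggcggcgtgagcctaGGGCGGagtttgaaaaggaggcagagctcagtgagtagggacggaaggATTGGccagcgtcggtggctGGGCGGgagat
Hdac7 chr15:97844503-97844702, minus strand: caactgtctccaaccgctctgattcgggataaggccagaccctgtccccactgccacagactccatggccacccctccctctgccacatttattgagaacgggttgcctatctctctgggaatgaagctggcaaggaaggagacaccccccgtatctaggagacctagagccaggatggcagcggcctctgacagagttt
Hdac2 chr10:36974344-36974543, plus strand: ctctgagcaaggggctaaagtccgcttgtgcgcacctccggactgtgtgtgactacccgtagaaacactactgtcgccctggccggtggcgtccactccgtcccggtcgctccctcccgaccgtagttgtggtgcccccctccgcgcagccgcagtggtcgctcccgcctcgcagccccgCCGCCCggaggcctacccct

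The promoters of the co-varying pair were unlike in these letters. The Hdac6 window holds 3 GC boxes and 2 CCAAT boxes, the Hdac2 window 1 GC box and no CCAAT box, and the Hdac7 window holds no match to either. On either strand, 31.0% of the 32851 promoters of this length hold a GC box and 29.3% a CCAAT box. A TATA box (TATAAA), an E-box (CACGTG) and a cAMP response element (TGACGTCA), found in 9.96%, 5.26% and 1.47% of promoters, had no match in these 3 windows. GC content was 60.5% for Hdac6, 57% for Hdac7 and 69.5% for Hdac2, with a median of 53% over all promoters. CpG dinucleotides numbered 12, 5 and 21, with a median of 5. Hdac7 has 4 annotated starts, and the one shown is that of its longest coding transcript.

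The genes differed in how many others shared their pattern. Hdac7 had a Pearson r of at least 0.7 with 451 of 14018 genes over the 35 libraries, and Hdac9 with 158, Hdac6 with 148 and Hdac3 with 120. Hdac1 had 3 such genes, Hdac8 8 and Hdac11 9. The most alike genes were Arhgef1 (r = 0.93, rho = 0.93), Akap8 (r = 0.92, rho = 0.90) and the noncoding RNA Snhg11 (r = 0.91, rho = 0.91) for Hdac7. They were Snx32 (r = 0.90, rho = 0.88), Izumo4 and Polr3e for Hdac3, and Ryr1 (r = 0.86, rho = 0.78), Agrn and Zfyve27 for Hdac6. For Hdac5 they were P4ha1 (r = 0.84, rho = 0.83), the microglial gene Tmem119 (r = 0.81, rho = 0.84) and Creld2, and for Hdac9 Slc39a10 (r = 0.88, rho = 0.79), Lrfn5 and Dpp10. For Hdac4 they were Nrgn (r = 0.74, rho = 0.48), Shc3 and Dnajc21. The remaining 4 genes reached at most 0.79, with Ppp2r2a, Tarsl2 and St8sia3 for Hdac2, Slc38a2, Appl2 and Sncaip for Hdac1, Npnt, Slc17a6 and Trpm3 for Hdac8, and Bcas3, Apbb1 and Wrb for Hdac11.

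Some deacetylases varied with the RNA levels of cell type markers, given as the mean log2 deviation over each marker list. Of 110 pairings of 10 genes with 11 lists, 9 passed an adjusted permutation p of 0.05 on r and 6 passed on rho as well. Hdac9 was lower where the 12 oligodendrocyte markers were higher (r = -0.79, adjusted permutation p = 0.0011; rho = -0.77, adjusted permutation p = 0.0011). Its r was -0.72 without the 2 farthest libraries, -0.70 within WT and -0.84 within KO. Hdac9 was higher where the 8 excitatory neuron markers were higher (r = 0.71, adjusted permutation p = 0.002567; rho = 0.47, adjusted permutation p = 0.04705), with 0.42 without the 2 farthest. Hdac5 followed the 8 microglia markers (r = 0.62, adjusted permutation p = 0.002567; rho = 0.65, adjusted permutation p = 0.0022), with 0.64 within WT and 0.61 within KO. It also followed the 5 oligodendrocyte precursor markers (r = 0.48, adjusted permutation p = 0.03911; rho = 0.57, adjusted permutation p = 0.01632), with 0.81 within WT and 0.05 within KO. On rho alone, Hdac5 also passed with the astrocyte markers (rho = 0.55, adjusted permutation p = 0.01632) and the endothelial markers (rho = 0.50, adjusted permutation p = 0.03465). Hdac11 ran against the 7 astrocyte markers (r = -0.61, adjusted permutation p = 0.00275; rho = -0.52, adjusted permutation p = 0.02593), while Hdac1 ran with them (r = 0.48, adjusted permutation p = 0.03911; rho = 0.49, adjusted permutation p = 0.03465). Hdac4 and the striatal markers gave r = -0.69 (adjusted permutation p = 0.03911), but -0.22 without KO_acetate 1, so that relation rested on that library. Hdac1 and the choroid plexus markers gave r = 0.56 (adjusted permutation p = 0.02508) and 0.30 without the 2 farthest libraries. The r was 0.77 within WT and 0.20 within KO, and rho did not pass (0.37, adjusted permutation p = 0.1708). Only 3 of the 5 choroid plexus markers were measured, and Ttr and Clic6 averaged -1.3 and -1.8 log2 CPM, near the floor. Other genes also passed on rho alone. With excitatory neuron markers these were Hdac8 (rho = -0.58, adjusted permutation p = 0.0132), Hdac1 (-0.54, 0.01632) and Hdac7 (-0.46, 0.04705). Hdac3 did so with endothelial (rho = -0.50, adjusted permutation p = 0.03465) and astrocyte markers (-0.46, 0.04705).

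**Figure D5:**
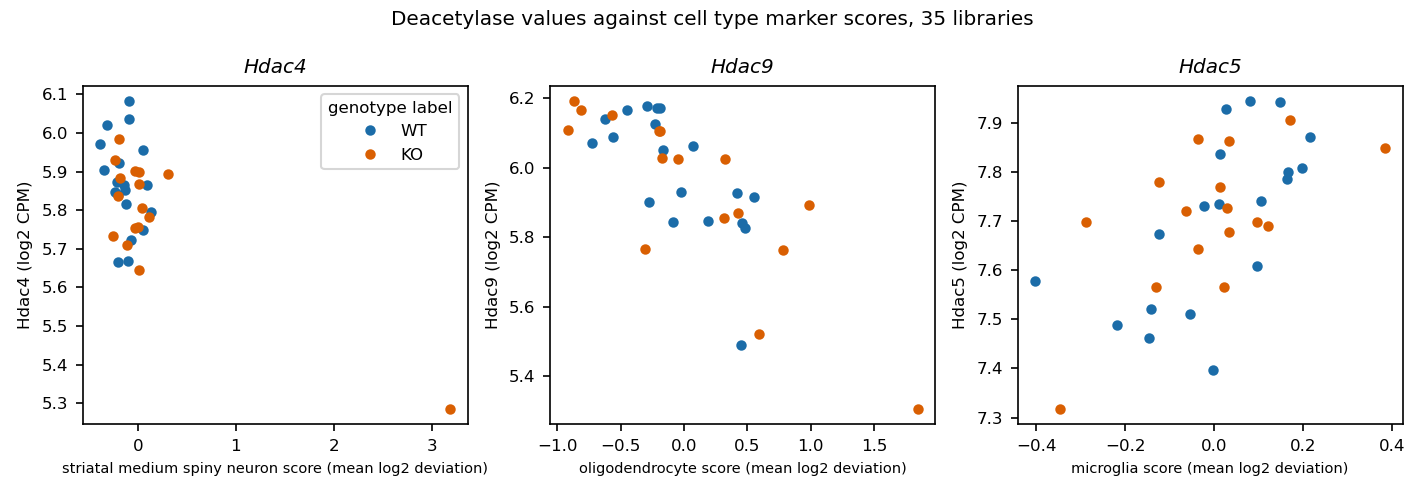
Hdac4, Hdac9 and Hdac5 (log2 CPM) against the striatal, oligodendrocyte and microglia marker scores (mean log2 deviation), 1 point per library (WT blue, KO orange). KO_acetate 1 is the point at the far right of the left and middle panels, and Hdac5 and Hdac9 vary along the whole range of their scores (r = 0.62 and -0.79).

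The transcripts of proteins that the deacetylases work with, and of the sirtuins, were also without a call. Of 66 listed genes of the SIN3, NuRD, CoREST, NCoR and MiDAC complexes, the sirtuins, the MEF2 factors and the kinases of class IIa, 64 were measured and 0 passed in any of the 19 comparisons. In abx_and_acetate against control in WT, where the median fold over all genes was 0.0006, 13 of the 64 (20.3%) had an unadjusted p under 0.05 against 14.4% of all genes. The shares were 15.6% against 6.12% for abx_and_acetate against abx in WT, 17.2% against 18.1% for the acetate main effect and 0% against 2% for abx_and_acetate against abx in KO. Against control they were 4.69% against 9.05% for abx in WT, 4.69% against 9.41% for acetate in WT and 9.38% against 13% for acetate in KO. The antibiotic main effect had 9.38% against 7.32%. In the comparisons not listed, the share lay on either side of that over all genes. Sik2, a kinase that phosphorylates class IIa enzymes, had the smallest p of its list, with a log2 fold of -0.54 ± 0.12 for abx against control in WT (adjusted p = 0.1659). In WT the Sik2 fold was also -0.48 ± 0.12 for acetate against control (adjusted p = 0.1664) and -0.47 ± 0.12 for abx_and_acetate against control (adjusted p = 0.05769). These comparisons share the WT_control libraries. Fam60a of the SIN3 complex had -0.45 ± 0.10 in the antibiotic main effect (adjusted p = 0.4988). In 5 of the other lists the smallest p belonged to Gatad2b (adjusted p = 0.8624), Sirt5 (adjusted p = 0.5457), Rcor2 (adjusted p = 0.2504), Dnttip1 (adjusted p = 0.8274) and Mef2a (adjusted p = 0.8274).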

How the data were processed

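The authors deposited 1 matrix of log2 CPM values (14870 genes by 35 columns). Every column name is a sample's title, and 0 columns went unused. The values have the form that limma's voom gives, log2 of reads plus 0.5 over an effective library size: 100% came out as whole reads within 0.01, which also gave the depth (12.8 to 28.0 M reads, median 21.8). Per the submitters' processing notes limma was used, of unstated version. For aligner, counter, strand, build and low-count filter, nothing is given in the sources used here. The labels do not state separate animals: p-values cover the spread among these libraries, which may be technical. Replicate numbers follow record order and pair nothing.

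Each gene was tested with limma 3.58.1 (R 4.3.3) on the deposited values, with 8 group means and labelled sex in 1 fit of all libraries, a mean-variance trend, 2-sided p-values and Benjamini-Hochberg adjustment over all genes (threshold 0.05). Folds carry standard errors (SE) and 95% intervals. Correlations used 100000 permutations (numpy 2.4.6, Python 3.11.15), adjusted over the 45 pairs or 110 pairings. Lengths and positions are from GENCODE M21 (GRCm38), with RPKM over the union of exons. All 10 genes are named, with the 3 genes most alike to each and, per partner list, the gene with the smallest p (for 1 list that gene is not reported here). The members and lists were chosen with earlier results of these data known. On simulated data the fit called 51 of 100 genes changed by 0.5 and 84 of 100 changed by 1 in KO against WT in control. The measured libraries gave 3 calls in this comparison, and detection when so few genes pass was not tested. The largest absolute deacetylase fold in any comparison was 0.38, and detection of a fold of that size was not tested. Alternatives are given at the end.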

Additional observations from a re-analysis of the deposited data

Results flagged for a closer look

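Of 70 groups of 4 or more libraries tested for a library far from its group, 4 had one, and chance alone flags about 1 in 20 groups, or 3.5 here. Hdac2 in KO_control 1 read 5.90, against 6.12 to 6.16 in the other KO_control libraries. Hdac8 in KO_abx_and_acetate 4 read 2.89, against 3.07 to 3.10 in its group. Hdac4 in WT_acetate 4 read 5.67, against 5.84 to 5.90, in a library whose Y-linked genes went against its sex label. Hdac4 in KO_acetate 1 read 5.29, against 5.73 to 5.90, in the library with the high striatal and oligodendrocyte markers.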

How the results depend on the processing

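The count of deacetylase genes past the threshold stayed at 0 in all 539 recalculations over the 19 comparisons, with voom weights, median centring, a pseudocount of 2, a filter at a mean of 0, no sex term, the RIN as covariate, no variance trend, fits of only the groups compared, marker scores as covariates, the doubted libraries left out and each library left out in turn (range 0 to 0). None of the 539 recalculated folds of the genes with the smallest p per comparison turned sign, and the smallest adjusted p was 0.06084, for Hdac5 in abx_and_acetate against control in WT. Folds named above that moved by over 1.5 times were those of Hdac4 in KO_acetate, of Hdac5 for acetate, abx and abx_and_acetate against abx in WT and abx_and_acetate in KO, of Hdac11 for acetate and abx in WT, and of Hdac6 and Hdac8 between sexes. The 5 pair correlations kept their sign in all 30 recalculations, of which those without the 6 doubted libraries were chosen after the data were seen. With the longest coding transcript as the length, all 10 RPKM values moved and the order kept a Spearman's rho of 0.99, with Hdac4 above Hdac7 and the ties of Hdac3 with Hdac2 and of Hdac1 with Hdac6 broken. Median centring moved no comparison's median over all genes by 0.1. No paired analysis was possible because the labels give no replicate numbers. Hdac8 had the fewest reads, 139 to 305 per library.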
